A study of Mus musculus with 2 samples.

Results

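The aminoacyl-tRNA synthetases are the enzymes that load each tRNA with its amino acid, and 37 of their genes were followed in mouse embryonic stem cells (mESCs) depleted of AIMP3. They were chosen by name, as the 20 genes for enzymes of the cytosol, the 16 genes for enzymes of mitochondria (names ending in 2) and *Tarsl2*, a threonyl-tRNA synthetase-like gene. All 37 had a probe among the 37018 genes on the arrays, and 36 were bright enough to be tested, among 24022 tested genes. The cells were AIMP3f/f;cre-ERT2 mESCs, in which tamoxifen (4-OHT) activates a Cre recombinase that deletes *AIMP3*, and they were clones grown out of blastocysts. Both AIMP3-depleted samples had 2 μM tamoxifen for 4 days, and the control cells, of the same floxed and Cre-carrying genotype, had ethanol. Each AIMP3-depleted RNA was labelled with Cy5 and hybridized to 1 array against the same Cy3-labelled control, made by pooling RNA from control replicates. The pool is 1 control sample, so the spread between control cultures was not measured, and an effect of the drug, of Cre itself or of the dyes, which were not swapped, cannot be told apart from that of AIMP3 loss. The labels do not say whether the replicates were separate cultures, so p-values measure only the spread between these arrays. The medium held LIF, and the labels name fibroblast feeder layers for routine culture. The methods of the study name fibroblast-conditioned medium for drug treatment.

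AIMP3 (gene name *Eef1e1*) is one of the scaffold proteins of the multi-tRNA synthetase complex, in which AIMP1, AIMP2 and AIMP3 hold a set of cytosolic synthetases together. The other cytosolic synthetases act outside this complex, and mitochondria import a separate set that charges their own tRNAs. Most synthetases of mitochondria have a nuclear gene of their own, whereas *Gars* and *Kars* each make both the cytosolic and the mitochondrial enzyme. When charged tRNAs run short, the kinase GCN2 favours translation of ATF4, a transcription factor that is known to activate several cytosolic synthetase genes through C/EBP-ATF response elements.

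Promoters with the letters of such an element are shown because they include the only synthetase gene that passed the fold threshold upwards, *Yars*, together with genes whose log2 ratios were negative after loess. The windows were taken from RefSeq (GRCm38.p6), from 250 bases before to 50 after the transcript start that the table uses, and 28 of the 37 genes matched. TGATGNAA was searched on both strands, and 3.97% of all 32851 windows hold it. Among the 13 cytosolic genes with a window 5 hold it, and among the 14 mitochondrial genes 0 do. The stretches from 120 bases before to 30 after the start are given 5′ to 3′ on the strand of the gene, with the matched letters in capitals.
Yars, chr4:129189783-129189932, plus strand: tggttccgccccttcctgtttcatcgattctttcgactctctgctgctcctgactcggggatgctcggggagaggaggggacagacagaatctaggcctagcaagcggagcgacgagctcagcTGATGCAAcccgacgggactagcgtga
Tars, chr15:11399629-11399778, minus strand: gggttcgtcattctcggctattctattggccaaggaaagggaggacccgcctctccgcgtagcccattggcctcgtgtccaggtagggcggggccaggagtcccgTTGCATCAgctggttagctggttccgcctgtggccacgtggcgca
Iars, chr13:49682010-49682159, plus strand: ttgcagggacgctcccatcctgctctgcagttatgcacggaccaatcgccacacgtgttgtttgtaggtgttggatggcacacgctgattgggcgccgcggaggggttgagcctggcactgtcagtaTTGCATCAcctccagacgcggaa
Aars, chr8:111033722-111033871, plus strand: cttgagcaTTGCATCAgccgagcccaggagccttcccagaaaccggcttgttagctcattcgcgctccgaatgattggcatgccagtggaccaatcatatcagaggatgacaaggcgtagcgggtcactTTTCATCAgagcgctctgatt
Gars, chr6:55037881-55038030, plus strand: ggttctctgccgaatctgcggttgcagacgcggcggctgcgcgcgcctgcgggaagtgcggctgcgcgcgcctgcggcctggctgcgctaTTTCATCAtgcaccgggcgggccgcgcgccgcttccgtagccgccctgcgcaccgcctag
In *Yars* the letters lie on the strand of the gene and begin 3 bases after the start. In the other genes they are read on the opposite strand, and *Aars* holds a pair of matches. A match of letters is a description of the window, not evidence that a factor binds there.

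The targeted gene was examined first. *Eef1e1* had a log2 ratio (AIMP3-depleted over control) of -0.90 on both arrays, a 1.87-fold lower signal (adjusted p = 5.08e-05). This direction follows the dyes in the labels, whereas the methods of the study describe a ratio with the control on top. All adjusted p-values here come from limma's test of the mean ratio against 0, adjusted by Benjamini-Hochberg over all tested genes. Where its probe lies relative to the deleted exons is not given in the sources used here. *Aimp1*, the scaffold that holds the arginine and glutamine enzymes, had log2 ratios of -0.24 and -0.12 (adjusted p = 0.0235), and *Aimp2*, the scaffold at the core of the complex, had -0.11 and -0.09 (adjusted p = 0.0946). *Eef1e1* stayed negative under every processing, whereas *Aimp1* turned to 0.10 and *Aimp2* to 0.25 when arrays were centred on their median in place of loess, and *Aimp2* was also positive, at 0.03, in the authors' deposited table.

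Across the synthetases the differences were small, and most pointed downwards after loess. Of the 36 measured genes, 29 had a negative mean log2 ratio and 27 were negative on both arrays, against 39.7% of all tested genes. The median was -0.18 (-0.17 and -0.20 on the arrays), where all tested genes had 0.015. At the threshold of the study (over 1.5-fold with an unadjusted p under 0.05 by limma), 1 gene was raised and 0 were lowered, against 5.52% and 0.791% of all tested genes (6.32% in either direction). At that unadjusted p without the fold threshold 22 were lower and 2 higher, against 27.0% and 33.5% of all tested genes. At an adjusted p under 0.05 and any fold, 19 synthetases were lower (52.8%) and 1 was higher, against 23.7% and 30.6% of all tested genes (54.3% in either direction). In the authors' deposited log2 values 13 were lower and 2 higher, and 12 of the 19 kept their call, while *Aars*, *Cars*, *Farsb*, *Iars*, *Kars*, *Lars* and *Sars* lost it (adjusted p from 0.0501 to 0.107). With the processed signals 21 were lower and 1 higher, and 17 of the 19 kept their call. *Cars* and *Sars* lost it there, and *Gars*, *Nars*, *Iars2* and *Pars2* gained it. The shares above are those of the loess fit. Past 1.5-fold, 2130 of all genes were raised and 617 lowered in the authors' table, against 1327 and 190 after loess. After loess the means of the measured genes other than *Yars* thus lay within 1.5-fold of the control, whereas *Dars* and *Tarsl2* passed it downwards with the processed signals and *Tarsl2* in the authors' deposited table.

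The direction of this shift depends on how the dyes were balanced. Loess removes the trend of the ratio with brightness on each array, whereas centring each array on its median leaves that trend in place and puts the median of all tested genes at 0.18. With median centring the synthetase median was 0.11, and 11 genes were negative and 25 positive. At an adjusted p under 0.05, 12 were then higher and 3 lower, against 54.5% and 8.77% of all tested genes, and those 3 (*Dars*, *Vars2* and *Tarsl2*) were among the 19 called after loess. Relative to the median of all genes, the synthetases were at -0.20 after loess, -0.07 with median centring, -0.16 with the processed signals that the scanner software gives and -0.16 with the authors' deposited log2 table. The family thus lay below the middle of all genes each time, while its sign relative to the control pool did not hold.

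**Figure D1:**
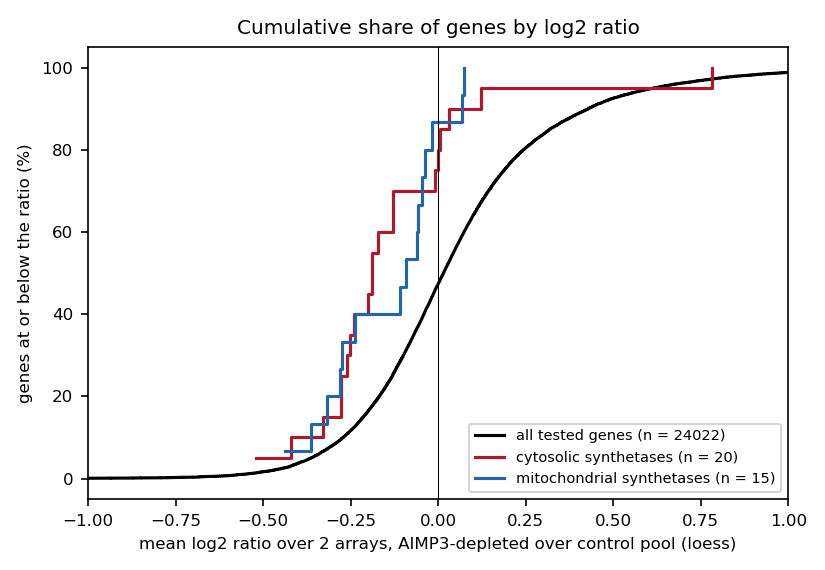
Cumulative share of genes (vertical axis, percent) at or below a mean log2 ratio of AIMP3-depleted over control signal (horizontal axis, after loess) for all 24022 tested genes, the 20 cytosolic and the 15 measured mitochondrial synthetases. Both synthetase curves lie left of the curve of all genes over most of its range, with medians of -0.19 and -0.09 against 0.015, and *Yars* makes the last step of the cytosolic curve; with median centring both medians turned to 0.11, against 0.18 for all genes.

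The 8 complex-bound enzymes are the partners of AIMP3. After loess 6 of them were lower at an adjusted p under 0.05 and 0 were higher (23.7% and 30.6% of all tested genes), 0 passed 1.5-fold (6.32%), and the median was -0.26 on each array and over both. *Dars*, the aspartyl enzyme, was the lowest, with -0.59 and -0.45 (mean -0.52 ± 0.095, SD, n = 2 arrays, adjusted p = 0.000437), a 1.43-fold lower signal. *Mars1*, the methionyl enzyme that binds AIMP3 directly and charges the initiator tRNA, had -0.26 and -0.40 (adjusted p = 0.00258). *Kars*, the lysyl enzyme, had -0.27 and -0.29 (adjusted p = 0.00258). *Lars*, which charges leucine, had -0.26 on both arrays (adjusted p = 0.00328). *Iars*, the isoleucyl enzyme, had -0.24 and -0.26 (adjusted p = 0.00378). *Rars*, the arginyl enzyme, had -0.29 and -0.19 (adjusted p = 0.0065). These 4 lay close together, from -0.28 to -0.24, and the place of *Rars* among them differed between the arrays.

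The remaining complex-bound enzymes changed sign between the arrays. *Qars*, the glutaminyl enzyme, had 0.05 and -0.04 (adjusted p = 0.924). *Eprs*, a single protein that charges both glutamate and proline, had -0.04 and 0.10 (adjusted p = 0.648) and was the highest of the group. With median centring *Kars* (0.09), *Lars* (0.11) and *Iars* (0.09) were positive, *Mars1* (-0.10) and *Rars* (-0.05) were negative but no longer past the adjusted threshold, and *Dars* kept its call at -0.32. *Qars*, at 0.35 (adjusted p = 1.94e-06), and *Eprs*, at 0.26 (adjusted p = 0.000445), were higher under it. With the processed signals *Dars* was at -0.59 and passed 1.5-fold. In the authors' deposited log2 values *Dars*, *Mars1* and *Rars* kept their call, whereas *Kars* (adjusted p = 0.0501), *Lars* (0.0503) and *Iars* (0.0758) did not pass.

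Among the 12 free cytosolic enzymes, *Yars* stood apart. This gene, for the tyrosyl enzyme, had log2 ratios of 0.62 and 0.95, a 1.72-fold higher signal (adjusted p = 0.00046). Its mean was 0.78 ± 0.23 (SD, n = 2 arrays). The 95% interval from 0.59 to 0.97 rests on limma's moderated variance, not on this SD. *Yars* was dim, with log2 signals of 8.72 and 8.86 in the AIMP3-depleted channel against 8.10 and 7.92 in the control channel. Both control values come from the same pool. *Yars* was measured by 1 probe, and the spread between its arrays was the largest of the 36 genes. It was higher under every processing, up to 0.91 with median centring and 1.14 in the authors' deposited table. In a test of the same log ratios without limma's moderation of the variance, it did not pass.

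The other free cytosolic enzymes ranged from -0.42 to 0.12, and 6 were lower at an adjusted p under 0.05, against 23.7% of all tested genes. Of these 6, *Tars* and *Vars* alone kept their call in the authors' deposited log2 values. With no filter on dim probes *Farsb* (adjusted p = 0.0539) and *Sars* (adjusted p = 0.0636) lost it. *Tars*, the threonyl enzyme, was the lowest, with -0.44 and -0.40 (adjusted p = 0.000555), and *Vars*, the valyl enzyme, followed with a mean of -0.28. *Cars*, *Farsb*, *Aars* and *Sars*, for cysteine, the beta chain of the phenylalanyl enzyme, alanine and serine, lay between -0.20 and -0.17. *Gars*, the glycyl enzyme, had -0.06 and -0.19 (adjusted p = 0.0743). *Nars* (-0.13), *Hars* (-0.0078) and *Farsa* (9.1e-05) did not pass either after loess, whereas with the processed signals *Gars* (adjusted p = 0.0457) and *Nars* (adjusted p = 0.0357) were lower. *Wars*, the tryptophanyl enzyme, had 0.12 on both arrays (adjusted p = 0.0527). Its second tested probe was at 0.017, and the mean of its probes was 0.070 (adjusted p = 0.197). *Wars* was higher in the authors' deposited table, at 0.17 (adjusted p = 0.0473), and with a stricter filter on dim probes (adjusted p = 0.0433). *Farsa* and *Farsb* make the alpha and beta chains of the same enzyme, and had means of 9.1e-05 ± 0.097 and -0.19 ± 0.076 (SD, n = 2 arrays). They were at -0.07 and -0.14 on replicate 1 and lay further apart on replicate 2, at 0.07 and -0.24. A second tested probe of *Farsa* was at 0.13. With median centring *Tars* (-0.08) and *Vars* (-0.05) were negative but not past the adjusted threshold, and *Cars*, *Farsb*, *Aars* and *Sars* were positive and did not pass either. Under it 5 of the 12 free enzymes were higher and 0 lower at an adjusted p under 0.05 by limma, against 54.5% and 8.77% of all tested genes, namely *Yars*, *Wars* (0.42), *Gars* (0.33), *Farsa* (0.25) and *Hars* (0.20).

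The medians of complex-bound and free enzymes differed by -0.11 (-0.13 and -0.06 on the arrays), with the complex-bound ones lower. With the processed signals and with the authors' deposited table this difference was -0.02, and with median centring it was -0.05. Genes are not replicates of a condition, so the difference is a description with no test.

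**Figure D2:**
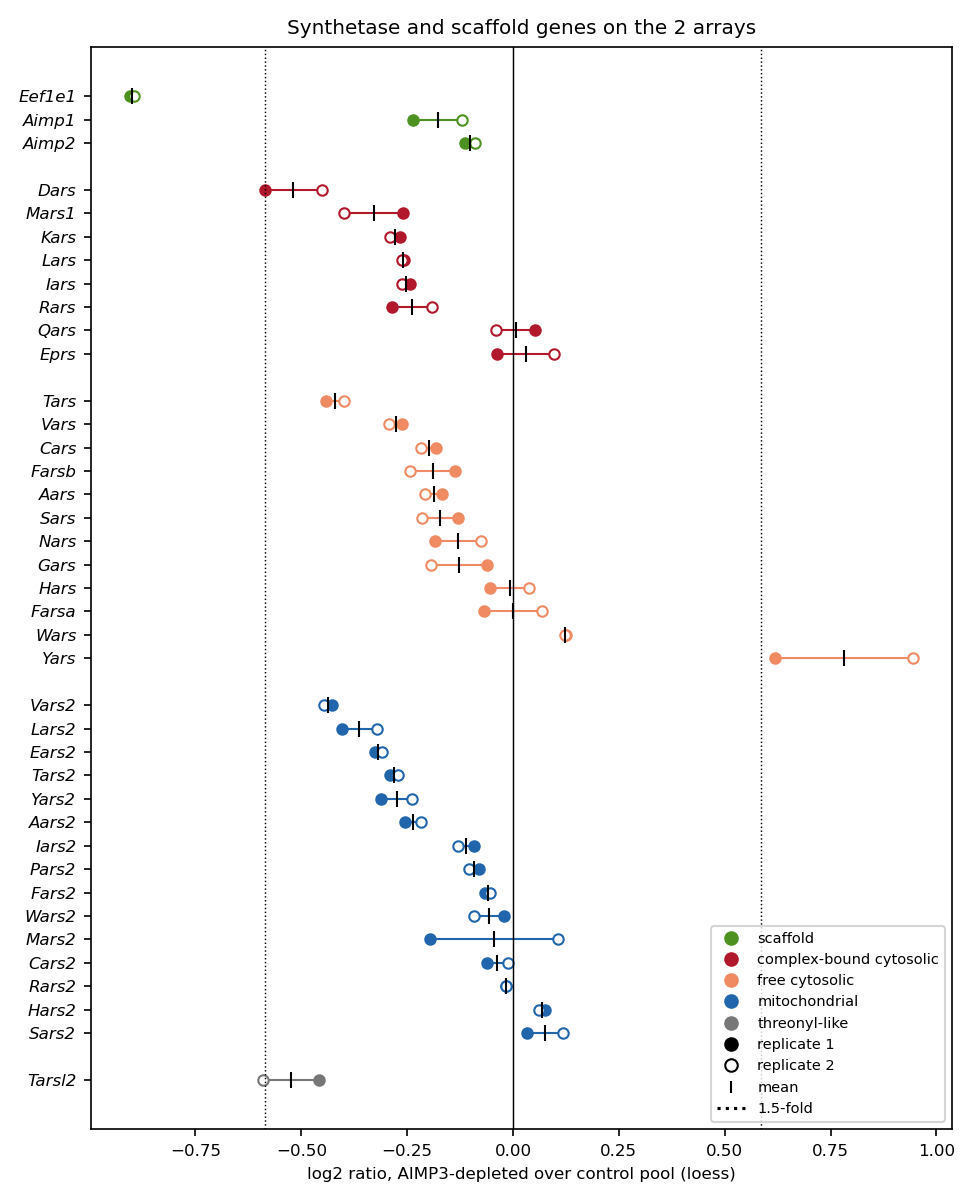
Log2 ratio of AIMP3-depleted over control signal after loess (horizontal axis) for the scaffold genes and the 36 measured synthetases, with filled circles for replicate 1, open circles for replicate 2, a tick for the mean and dotted lines at 1.5-fold. Most synthetases lie between -0.45 and 0.12 on both arrays and *Yars* lies to the right of the 1.5-fold line on both; with median centring 25 of the 36 were positive.

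Of the 16 mitochondrial enzymes 15 were measured, 13 of them with a negative mean. The median was -0.09 (-0.09 and -0.10), 6 were lower at an adjusted p under 0.05 (23.7% of all tested genes), and 0 were higher (30.6%) or passed 1.5-fold (6.32%), with 7 lower at an unadjusted p under 0.05 by limma, against 27.0% of all tested genes. *Vars2*, for valine, was the lowest, with -0.43 and -0.45 (adjusted p = 0.000463). *Lars2*, for leucine, had a mean of -0.36, *Ears2*, the mitochondrial glutamyl enzyme, had -0.32, and *Tars2*, *Yars2* and *Aars2*, for threonine, tyrosine and alanine, lay from -0.28 to -0.24. These 6 were the genes that passed. *Sars2*, the seryl enzyme, was the highest, with 0.03 and 0.12 (adjusted p = 0.218).

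The remaining 8 measured mitochondrial enzymes, for isoleucine, proline, phenylalanine, tryptophan, methionine, cysteine, arginine and histidine, ranged from -0.11 to 0.07, and none passed the adjusted threshold after loess with the brightest probe. *Mars2* differed between the arrays, with -0.20 and 0.11 (SD 0.21). *Cars2* was the only one of the 7 synthetases with several tested probes whose probes differed in sign, at -0.04 and 0.00058. The probes of *Iars2*, at -0.11 and -0.42, lay furthest apart, and *Iars2* was lower at their mean (-0.26, adjusted p = 0.00339), with the processed signals (-0.24, adjusted p = 0.0278) and in the authors' deposited table (-0.20, adjusted p = 0.037). *Nars2*, for asparagine, was well above background in only 1 channel of 1 array and was not tested. With median centring the mitochondrial median was 0.11, and *Vars2* alone of the 6 kept its call, at -0.25. Under it 5 of the 15 were higher at an adjusted p under 0.05, against 54.5% of all tested genes, *Hars2* (0.29), *Sars2* (0.28), *Rars2* (0.23), *Cars2* (0.17) and *Fars2* (0.16).

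The cytosolic median of -0.19 lay below the mitochondrial one by 0.10 after loess (-0.08 and -0.11 on the arrays, cytosolic minus mitochondrial). The difference was -0.02 with the processed signals and with the authors' deposited table, and 0.0016 with median centring, so which set was lower was not settled by these arrays. *Tarsl2*, whose name ends in 2 although its product resembles the cytosolic threonyl enzyme, had the lowest mean of the synthetase genes, level with *Dars* and below it only on the array of replicate 2, with -0.46 and -0.59 (mean -0.52 ± 0.092, SD, n = 2 arrays, adjusted p = 0.000407), a 1.44-fold lower signal. It was negative under every processing, from -0.64 with the processed signals to -0.34 with median centring. *Tars*, the cytosolic gene for the same amino acid, was at -0.42.

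**Figure D3:**
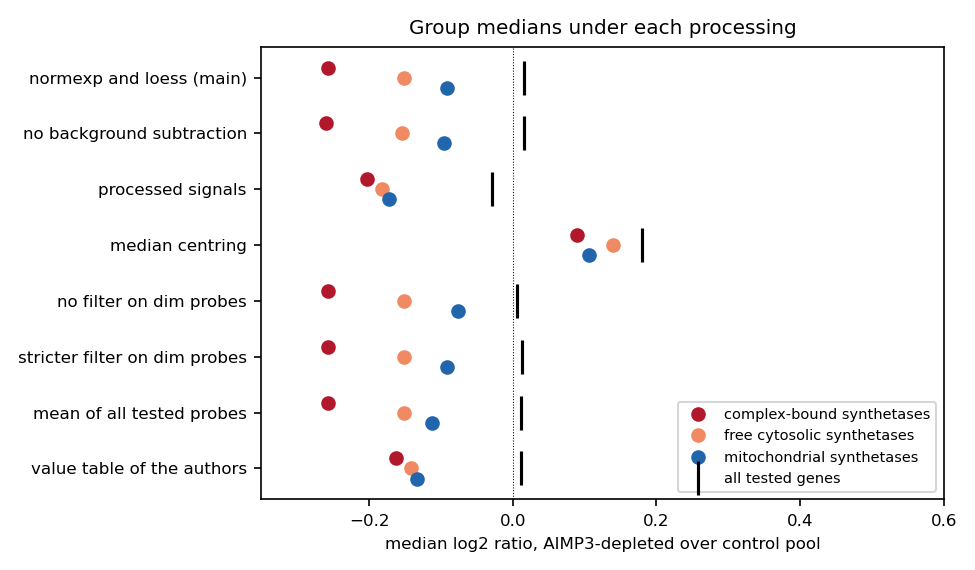
Median log2 ratio of AIMP3-depleted over control signal (horizontal axis) of the complex-bound, free cytosolic and mitochondrial synthetases (circles) and of all tested genes (black ticks) for each way of processing the arrays. Each group lies left of the tick of all genes in every row, whereas all 3 groups lie right of 0 with median centring, and the gap between groups shrinks to about -0.02 with the processed signals and the authors' table.

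Enzymes for the same amino acid in the cytosol and in mitochondria could be compared in 15 pairs. In 8 pairs both were negative after loess, in 7 the signs differed, and in 0 both were positive. The phenylalanine pair, with *Farsa* at 9.1e-05, counts among those whose signs differed. With no background subtraction 9 pairs were negative in both members and 6 differed in sign, and with the processed signals 11 and 4. With median centring 1 pair (valine) was negative in both members, 7 pairs were positive in both and in 7 the signs differed. The cytosolic enzyme was lower on both arrays in 7 pairs and higher on both arrays in 7. After loess the median of the pair differences, cytosolic minus mitochondrial, was 0.049, opposite in sign to the difference of the group medians. In the pairs for alanine, leucine, threonine and valine both enzymes were lower at an adjusted p under 0.05 after loess. None of these pairs kept both calls with median centring, and *Aars* (adjusted p = 0.0711) and *Lars* (adjusted p = 0.0503) did not pass in the authors' deposited table. After loess the tyrosine pair was the only one whose members both passed with opposite signs. *Yars2*, its mitochondrial member, had -0.31 and -0.24 (adjusted p = 0.00331), and *Yars* exceeded it by 0.93 and 1.18 on the arrays. With median centring *Yars2* was at -0.03 and did not pass, while *Yars* did. For glutamate *Eprs* exceeded *Ears2* by 0.35, and for methionine *Mars1* lay below *Mars2* by a log2 difference of -0.28 (-0.06 and -0.50).

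**Figure D4:**
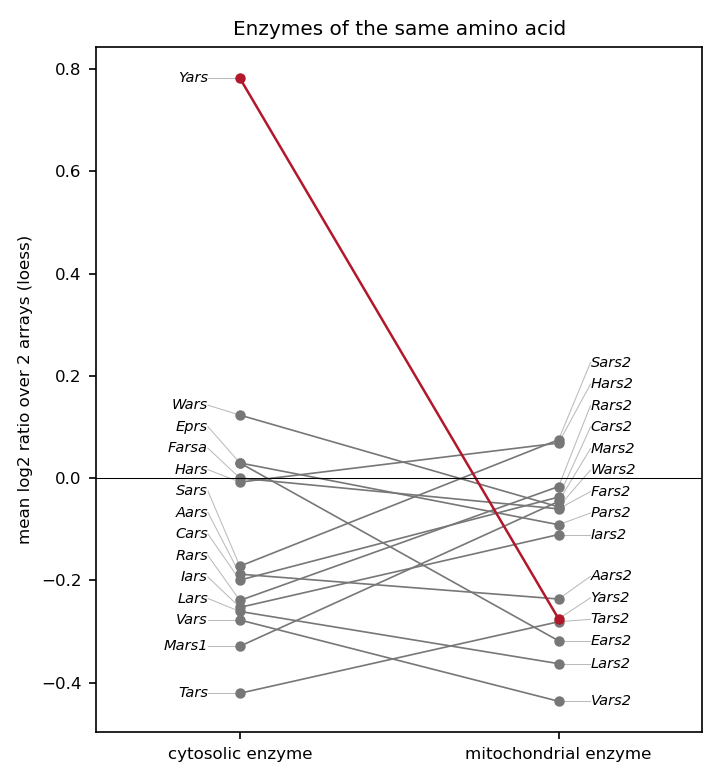
Mean log2 ratio over both arrays (vertical axis, after loess) of the cytosolic and the mitochondrial enzyme for each of the 15 amino acid pairs, joined by lines, with tyrosine in red; *Eprs* appears in 2 pairs. Tyrosine joins 0.78 to -0.28 and the other lines run upwards and downwards alike; with median centring *Yars* was at 0.91 and *Yars2* at -0.03.

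Structural class did not separate the synthetases. Class I enzymes, which share a Rossmann fold, had a median of -0.20 over 19 genes, and class II enzymes, built on another fold, had -0.17 over 17, with a difference of -0.06 for replicate 1 and 0.02 for replicate 2. Both medians are after loess.

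Of the 12 cytosolic synthetases listed as known ATF4 targets, 9 were negative on both arrays after loess (39.7% of all tested genes) and 2 positive. After loess 7 were lower, 1 was higher (*Yars*) and 4 did not pass at an adjusted p under 0.05, where 23.7% of all tested genes were lower and 30.6% higher. Their median was -0.18, against -0.21 for the other 8 cytosolic genes. In the authors' deposited log2 values *Tars* and *Mars1* alone kept their call as lower, and *Yars* and *Wars* were higher. Shares of all tested genes are given here for loess and median centring only. The letters of the response element stand in the printed promoters of *Yars*, with a mean of 0.78, and equally in those of *Tars* (-0.42), *Iars* (-0.25), *Aars* (-0.19) and *Gars* (-0.13). Of 25 other amino acid response genes of ATF4 23 were measured, with 3 raised past 1.5-fold, 7 higher and 8 lower at the adjusted threshold, against 5.52%, 30.6% and 23.7% of all tested genes. With median centring 5 were raised, 15 higher and 2 lower, where 2823 of all 24022 tested genes were raised, 54.5% higher and 8.77% lower. The median of the list relative to all genes was -0.08 after loess and 0.11 with median centring. *Atf5*, a transcription factor related to ATF4, had 1.08 and 1.18. *Ddit3*, which encodes the stress factor CHOP, had 0.92 and 0.85, and *Cebpb* had 0.86 and 0.89. *Atf4* itself was higher, at 0.42 (adjusted p = 0.000691). *Asns*, which makes asparagine, was lower at -0.26 (adjusted p = 0.0054), and so was *Psat1*, of serine synthesis, at -0.35 (adjusted p = 0.00133), but with median centring *Asns* was at 0.13 and *Psat1* at -0.0084. The lowest of the list, *Gpt2* (-0.41) and *Slc7a5* (-0.38), stayed negative under it, at -0.20 and -0.15. Among the higher genes under 1.5-fold, *Trib3* was at 0.37, *Sesn2* at 0.32 and *Slc7a1* at 0.21. *Atf4*, *Atf5*, *Ddit3* and *Cebpb* were thus higher, while 7 of the 12 synthetases were lower after loess. With median centring these 4 genes were positive too, whereas 0 of the 12 synthetases were lower and 4 were higher (*Yars*, *Wars*, *Gars* and *Eprs*) by limma at an adjusted p under 0.05 (8.77% and 54.5% of all tested genes), with a median of 0.12.

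**Figure D5:**
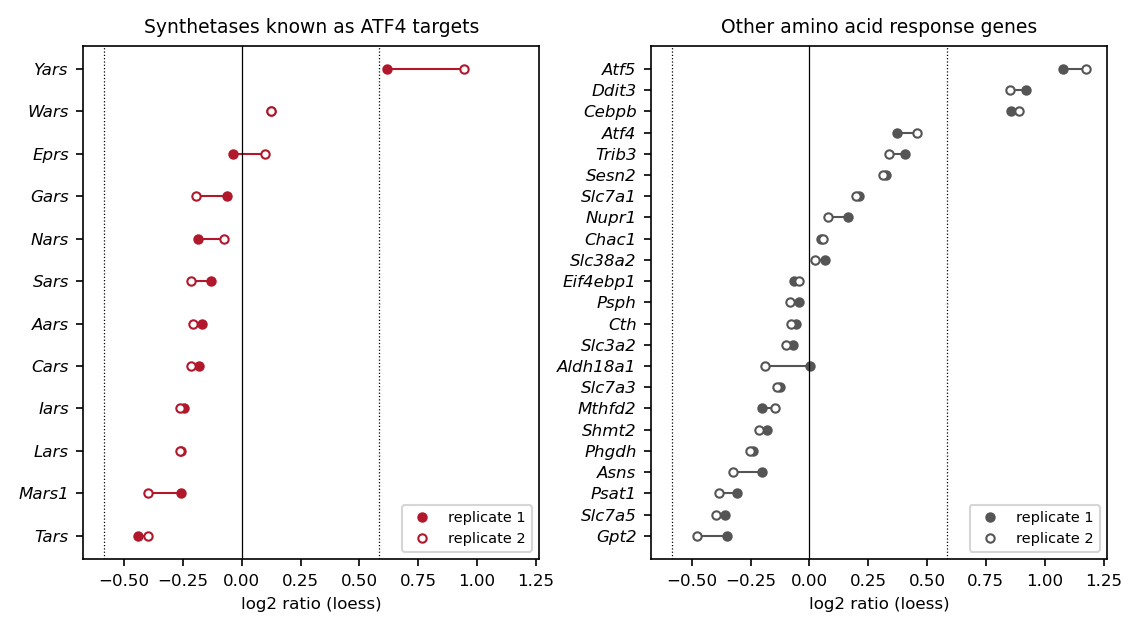
Log2 ratios after loess (horizontal axis) of the 12 synthetase genes listed as ATF4 targets (left) and of 23 other amino acid response genes (right), with filled circles for replicate 1, open circles for replicate 2 and dotted lines at 1.5-fold. *Yars* on the left and *Atf5*, *Ddit3* and *Cebpb* on the right lie past the upper line, and the medians of both panels, -0.18 and -0.06, turned positive with median centring.

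Genes that act next to the synthetases were mixed, and their counts at an adjusted p under 0.05 are to be read beside the 23.7% of all tested genes that were lower and the 30.6% that were higher. Of the 4 subunits of elongation factor 1, which carries charged tRNA to the ribosome, *Eef1a1* was higher at 0.32 and 3 did not pass. Of the 9 measured mitochondrial translation factors 4 were lower, among them *Tsfm* (-0.37), and *Mtif3* was higher (0.28). Mitochondria charge glutamine through an amidotransferase in place of a synthetase, and of its 3 subunits *Gatc* was higher (0.25), *Qrsl1* lower (-0.26) and *Gatb* at 0.12. *Pstk*, the kinase that acts on seryl-tRNA on the way to selenocysteine, was lower, at -0.56 and -0.60 (adjusted p = 0.000181). Of the 4 genes for proofreading of mischarged tRNA 3 were lower, *Aarsd1* at -0.40, *Dtd1* at -0.41 and *Dtd2* at -0.17. Of the 4 measured genes that bring initiator methionyl-tRNA to the ribosome, *Eif2s1* (-0.34) and *Eif2s3x* (-0.41) were lower. In tRNA maturation and export 4 of 10 were lower and 1 was higher. These values are after loess, and the medians of the translation factor, initiation and maturation lists turned positive with median centring. Under it the proofreading median moved from -0.28 to -0.035, with *Dtd2* at 0.03, and the median of elongation factor 1 from 0.06 to 0.51. Of its subunits 2 (*Eef1a1* and *Eef1b2*) were then raised past 1.5-fold, as were 2823 of all 24022 tested genes.

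Markers of other cell types moved with the depletion. After loess 7 of 10 stem cell markers were lower and 2 higher at the adjusted threshold (23.7% and 30.6% of all tested genes), with *Tdgf1* lowered past 1.5-fold at -0.59, although it was at -0.55 with the processed signals and -0.20 with median centring. The median of this list was -0.22, and 0.070 with median centring, where *Zfp42*, *Utf1* and *Sall4* turned positive. *Pou5f1*, *Nanog* and *Sox2*, at -0.48, -0.38 and -0.53 after loess, stayed negative under it, at -0.26, -0.17 and -0.29. The summed signal of the list was 0.17 and 0.12 higher on the log2 scale, with *Dppa5a*, the brightest of them, at 0.50. All 9 measured fibroblast markers were higher (6 past 1.5-fold, against 5.52% of all tested genes), with a summed signal 0.56 and 0.50 higher. All 10 primitive endoderm markers were raised, with sums 1.12 and 1.06 higher, and 5 of 7 trophectoderm markers were raised, with sums 1.51 and 1.55 higher, in which *Krt18* was the brightest. The other trophectoderm markers were lower, *Eomes* at -0.16 (adjusted p = 0.0286) and *Tfap2c* at -0.21 (adjusted p = 0.0088), although *Tfap2c* was at 0.05 with median centring. *Lum* of the fibroblast list and *Elf5* of the trophectoderm list were too dim to be tested. A change in the mix of cells and a change in RNA per cell cannot be told apart in these bulk samples, and the part of these markers in the synthetase values was not tested.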

How the data were processed

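Gene expression was measured on 2 two-colour arrays, both on 1 slide. The authors deposited the scanner output of Feature Extraction (11.5.1.1 in the file header), which holds spot intensity, background, processed signals and a log10 ratio. Their deposited value table holds log2 ratios, which equal the processed log ratio plus 0.0404 and 0.0395 on the arrays, within 0.01 for 99.8% of probes (column medians 0.0909 and 0.111, so the columns are not centred on 0). Direction follows the dyes in the labels (AIMP3-depleted over control). The study's methods describe the opposite ratio and name another version of the software. All columns of per-sample values in the table were used.

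Median signals were background-corrected with normexp (offset 50) and normalized by loess in limma 3.58.1 (R 4.3.3). Control spots and outlier spots (215 and 227) were left out, and 0 spots were saturated. Spots well above background made up 59.3% to 60.6% of a channel. The median signal was 2.68 to 3.31 times its background. Of 55681 probes 33014 were tested, those that both arrays showed well above background in 1 channel or more, and the brightest stands for a gene. Accessions of 31014 spots matched RefSeq names, and other genes keep the name in the file. The synthetases have 46 probes, 43 of them tested.

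Mean log2 ratios were tested against 0 with lmFit and eBayes over all 24022 genes (1 residual and 5.25 prior degrees of freedom), with Benjamini-Hochberg adjustment. Adding 50 shrinks the ratios of dim probes. The fit was checked on simulated data. Having only 2 arrays limits the precision. The synthetases and gene lists were chosen with earlier results of these data known. Named genes are those past a threshold, the extremes of each group, the complex-bound enzymes and scaffolds, pairs with opposite signs, and a few set by name. In the other lists, genes under 1.5-fold were named after their values were seen. Alternatives were other backgrounds, normalizations, filters, probe rules, thresholds and the authors' table, leaving out each array, and a test without moderation. Medians relative to all genes were added after seeing the data.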

Additional observations from a re-analysis of the deposited data

How the results depend on the processing

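With median centring the medians were 0.11 for all synthetases, 0.11 for cytosolic, 0.11 for mitochondrial, 0.089 for complex-bound and 0.14 for free enzymes, and the cytosolic minus mitochondrial difference was 0.0016. The cause was not tested. Genes that turned positive under it were *Aars* (0.10), *Cars* (0.13), *Farsb* (0.065), *Gars* (0.33), *Hars* (0.20), *Nars* (0.11), *Iars* (0.086), *Kars* (0.092), *Lars* (0.11), *Sars* (0.15), *Cars2* (0.17), *Fars2* (0.16), *Iars2* (0.11), *Mars2* (0.095), *Pars2* (0.12), *Rars2* (0.23), *Tars2* (0.046), *Wars2* (0.12), *Aimp1* (0.10) and *Aimp2* (0.25). So did the list medians of the scaffolds (0.10), mitochondrial translation factors (0.14), selenocysteine genes (0.067), initiation factors (0.14), tRNA maturation (0.21), other ATF4 genes (0.29) and stem cell markers (0.070). *Eprs* (-0.023) and *Farsa* (-0.018) turned negative with processed signals, *Farsa* (-0.0029) with no background subtraction, and *Aimp2* (0.033) turned positive in the authors' table. The median of elongation factor 1 was -0.035 with processed signals and that of the amidotransferase -0.031 at the mean of all probes. With processed signals the medians were -0.17 (mitochondrial) and -0.20 (complex-bound), and the differences were -0.019 for cytosolic minus mitochondrial and -0.021 for complex-bound minus free. In the authors' table the medians were -0.15 (all), -0.15 (cytosolic), -0.13 (mitochondrial) and -0.16 (complex-bound), with differences of -0.019 and -0.021. Complex-bound minus free was -0.051 with median centring. The complex-bound median was -0.26 with no background subtraction. The mitochondrial median was -0.076 with no filter on dim probes, -0.11 at the mean of all probes (difference from cytosolic -0.077) and -0.10 with *Tarsl2* counted in. *Aimp1* was at -0.18 (adjusted p = 0.0665 by limma) with no filter and -0.15 (adjusted p = 0.0732) in the authors' table. Processed signals lowered 2 synthetases past 1.5-fold (2 cytosolic genes called in either direction, 1 of them complex-bound) and the authors' table lowered 1. The unmoderated test and a 2-fold threshold each called 0 cytosolic and 0 free genes, and 0 raised overall. At an adjusted p under 0.05 at any fold, 19 were lower, with 13 cytosolic, 6 mitochondrial, 6 complex-bound and 7 free genes called. By fold alone 1 was lowered without replicate 1 (*Tarsl2*) and 1 without replicate 2 (*Dars*), so that 1 to 2 cytosolic and 0 to 1 complex-bound genes were called. Without 1 replicate, medians ranged from -0.20 to -0.17 (all), -0.21 to -0.17 (cytosolic), -0.10 to -0.091 (mitochondrial), -0.26 to -0.26 (complex-bound) and -0.20 to -0.13 (free). Raised genes made up 87.5% of all called genes after loess, 71.5% with processed signals, 97.7% with median centring and 77.5% in the authors' table. Over all genes 65 were lowered with median centring and 776 with processed signals, against 190. No paired analysis was possible because each value already is a ratio within 1 array, and the single control pool carries no replicate numbers to use as a block. The signals limit *Nars2*, which had no tested value, and *Yars*, whose control signal was dim.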
